A study of Mus musculus with 9 samples.

Results

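The 50 genes described here code for proteins that copy DNA and that divide the copied chromosomes. Of these, 27 belong to DNA replication and its nucleotide supply and 23 to mitosis. They were taken by symbol from a list of such genes, by a rule that names no measured value, among the 24819 genes of the expression table. The list was drawn up with earlier results of these data known. All 50 were found, and all 50 passed the filter on low values that left 12330 genes for testing (at least 1 FPKM in at least 3 of the 9 libraries). FPKM, the unit of the table, counts sequenced fragments per kilobase of transcript, scaled to the library total.

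The RNA came from E14 cells, an established line of mouse embryonic stem cells, stably kept in 3 media. The first, EPSCM, is a medium for expanded potential stem cells, whose additives the sources used here do not list. The second, 2iLIF, is serum-free N2B27 medium with 2i, which by convention is a pair of inhibitors of MEK and GSK3, and with leukaemia inhibitory factor (LIF). The third, ES, is serum medium with LIF. All cells were of that 1 line, grown on gelatin without a feeder layer being named, and no genetic change is given for any group. Each medium had 3 libraries of polyadenylated RNA. The labels do not say whether these came from separate cultures, so p-values measure only the spread between the libraries, which may be technical. In RNA from whole cultures, fewer cells in a phase of the cell cycle and less RNA per cell cannot be told apart, and this holds for every result that follows.

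DNA replication is licensed in G1, when the origin recognition complex, Cdc6 and Cdt1 load the ring of Mcm2 to Mcm7 onto DNA. In S phase Cdc45 and the GINS complex turn that ring into a moving helicase, and the polymerases follow it. Mitosis is started by cyclin B with Cdk1, is held by the spindle checkpoint until every chromosome is attached, and is completed once Cdc20 activates the anaphase-promoting complex. Textbook accounts place many replication genes under E2F factors, and many mitosis genes under the CHR element bound by the MuvB complex, often with CCAAT boxes bound by NF-Y nearby. Mouse embryonic stem cells are known for fast division with a short G1.

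Promoter sequences from RefSeq (build GRCm38.p6) were matched by symbol for 42 of the 50 genes, and the stretches from 200 bases before to 50 bases after the start are shown for the genes with the largest differences whose window held the element of their group. Among the replication genes these were Pola1 (the catalytic subunit of DNA polymerase alpha), the helicase subunits Mcm3 and Mcm6, and Cdt1 (a loader of that helicase). Capitals mark E2F words, which are TTTCCCGC, TTTCGCGC, TTTGCCGC or TTTGGCGC on either strand. Words that overlap or touch form a single run.
Pola1 (chrX:93632106-93632355, minus strand): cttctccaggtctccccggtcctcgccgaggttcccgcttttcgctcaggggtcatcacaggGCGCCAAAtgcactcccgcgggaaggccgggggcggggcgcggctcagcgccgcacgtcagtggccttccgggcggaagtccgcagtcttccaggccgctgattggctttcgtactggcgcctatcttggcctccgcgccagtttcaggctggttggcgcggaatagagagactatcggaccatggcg
Mcm3 (chr1:20820263-20820512, minus strand): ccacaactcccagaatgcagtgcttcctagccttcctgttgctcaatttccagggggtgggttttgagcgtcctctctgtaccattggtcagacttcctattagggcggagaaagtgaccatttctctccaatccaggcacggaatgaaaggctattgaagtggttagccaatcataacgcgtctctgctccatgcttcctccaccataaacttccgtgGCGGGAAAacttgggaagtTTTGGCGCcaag
Mcm6 (chr1:128359656-128359905, minus strand): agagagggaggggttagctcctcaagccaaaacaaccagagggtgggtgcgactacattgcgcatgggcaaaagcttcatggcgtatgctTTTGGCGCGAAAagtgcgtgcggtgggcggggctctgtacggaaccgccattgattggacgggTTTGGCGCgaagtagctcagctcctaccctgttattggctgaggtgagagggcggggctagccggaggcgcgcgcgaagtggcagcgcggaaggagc
Cdt1 (chr8:122567815-122568064, plus strand): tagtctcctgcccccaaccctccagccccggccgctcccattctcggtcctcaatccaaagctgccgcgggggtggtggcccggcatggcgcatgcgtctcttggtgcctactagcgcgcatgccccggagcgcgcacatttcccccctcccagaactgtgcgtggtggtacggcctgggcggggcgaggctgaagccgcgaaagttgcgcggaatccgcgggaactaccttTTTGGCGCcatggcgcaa
Among the mitosis genes these were Cdc20 (activator of the anaphase-promoting complex), Bub1 and Bub1b (both of the spindle checkpoint) and Kif23 (a kinesin of the central spindle, needed for cytokinesis). Capitals mark CHR words, which are TTTGAA or TTCGAA on either strand. The second word is its own reverse complement.
Cdc20 (chr4:118437294-118437543, minus strand): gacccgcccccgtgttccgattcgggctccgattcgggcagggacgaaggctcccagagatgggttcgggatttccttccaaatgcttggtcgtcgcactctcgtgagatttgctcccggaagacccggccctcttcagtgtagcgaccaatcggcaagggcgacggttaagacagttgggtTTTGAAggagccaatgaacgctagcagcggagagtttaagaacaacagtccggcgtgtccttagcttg
Bub1 (chr2:127831810-127832059, minus strand): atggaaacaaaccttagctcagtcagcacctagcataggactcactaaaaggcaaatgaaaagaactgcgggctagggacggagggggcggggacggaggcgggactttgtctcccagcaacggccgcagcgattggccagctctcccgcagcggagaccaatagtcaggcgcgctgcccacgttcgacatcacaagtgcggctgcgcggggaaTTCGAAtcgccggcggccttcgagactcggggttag
Kif23 (chr9:61946750-61946999, minus strand): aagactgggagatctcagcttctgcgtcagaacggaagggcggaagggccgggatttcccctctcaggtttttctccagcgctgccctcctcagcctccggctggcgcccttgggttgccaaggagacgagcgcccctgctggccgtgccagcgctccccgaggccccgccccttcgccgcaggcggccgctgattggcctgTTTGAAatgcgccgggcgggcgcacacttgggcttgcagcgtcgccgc
Bub1b (chr2:118598011-118598260, plus strand): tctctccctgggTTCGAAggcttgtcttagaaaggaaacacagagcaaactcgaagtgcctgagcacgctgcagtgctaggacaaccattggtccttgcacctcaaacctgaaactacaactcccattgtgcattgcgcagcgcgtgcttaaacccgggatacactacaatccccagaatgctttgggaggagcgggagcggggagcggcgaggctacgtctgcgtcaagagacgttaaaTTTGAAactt

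In the whole window of 300 bases (250 before to 50 after the start), the 2 gene groups differed in the words they held. An E2F word lay in 11 of 23 replication promoters (47.8%) and in 1 of 19 mitosis promoters (5.26%), that of Cdk1, against 4.95% of the 9689 promoters of tested genes and 2.60% of all 27025 promoters. A CHR word lay in 5 of 23 replication promoters (21.7%) and in 15 of 19 mitosis promoters (78.9%), against 15.9% of tested genes and 21.7% of all promoters. The NF-Y word CCAAT lay in 17 of 23 replication promoters (73.9%) and in 17 of 19 mitosis promoters (89.5%), against 43.7% of tested genes and 41.1% of all. Each promoter counted once per motif, and words of different motifs may share some bases. Outside the 50, an E2F word lay in 13 of 40 replication promoters (32.5%) and 7 of 53 mitosis promoters (13.2%), and a CHR word in 7 of 40 (17.5%) and 36 of 53 (67.9%). The NF-Y word lay there in 19 of 40 replication promoters (47.5%), near the share of tested genes, and in 36 of 53 mitosis promoters (67.9%). With only the 250 bases before the start, an E2F word lay in 8 of 23 replication promoters (34.8%) and in 1 of 19 mitosis promoters, against 4.11% of tested genes, and outside the 50 in 7 of 40 (17.5%) and 6 of 53 (11.3%). In that shorter window a CHR word lay in 8 of 19 mitosis promoters (42.1%) and in 5 of 23 replication promoters (21.7%), against 14.1% of tested genes. These are counts of letters in a window and do not show that a factor was bound.

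**Figure D1:**
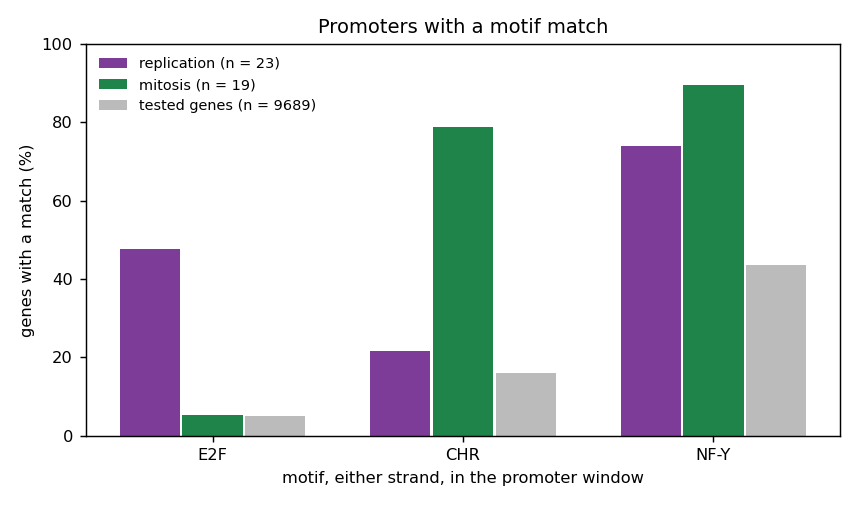
Share of promoters (%, vertical axis) with an E2F, CHR or NF-Y word on either strand in the 300-base window, for replication genes (purple), mitosis genes (green) and all tested genes with a promoter (grey). E2F words stood in 47.8% of replication promoters and 5.26% of mitosis promoters, CHR words in 21.7% and 78.9%.

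The libraries summed to 546636 to 600728 FPKM. Depth is not given by the file; steps between low values gave a rough estimate of it, at which 1 fragment in a transcript of 1 kilobase was worth 0.0372 to 0.0582 FPKM. The lowest value of any of the 50 genes in any library was 8.07 FPKM, for Pola1, so counting error was small for all of them. In each medium 1 library stood apart from the other two: EPSCM replicate 2, 2iLIF replicate 1 and ES replicate 1. The close libraries of a medium correlated at r = 0.9959 to 0.9967 over all tested genes, and pairs with the library apart at 0.9855 to 0.9902. All 10 embryonic stem cell markers checked averaged at least 1 FPKM in every medium, with summed levels of 5405 to 6050 FPKM in EPSCM, 6618 to 7778 in 2iLIF and 6542 to 7687 in ES. Summed fibroblast markers were 12.9 to 15.6, 4.51 to 4.96 and 16.1 to 18.6 FPKM in the same order, with Col1a2, Col3a1, Dcn, Lum and Postn under 0.1 FPKM in all 3 media. Primitive endoderm markers summed to 66.0 to 74.1, 44.5 to 49.8 and 54.9 to 60.7 FPKM, trophoblast markers to 62.7 to 76.2, 77.4 to 89.2 and 30.0 to 34.6, and neural markers to 27.1 to 30.7, 21.9 to 25.2 and 66.6 to 74.0. Their part in the results was not tested.

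All 50 genes were expressed in all 3 media. In EPSCM their means ran from 11.8 FPKM (Cenpe, a kinetochore kinesin) to 267 FPKM (Pcna, the sliding clamp of the polymerases), in 2iLIF from 9.63 FPKM (Cdc25c) to 386 FPKM (Pcna), and in ES from 11.0 FPKM (Cdc25c, a phosphatase that activates Cdk1) to 378 FPKM (Pcna). Summed over the 27 replication genes the level was 2442, 2524 and 2469 FPKM in EPSCM, 2627, 2598 and 2534 FPKM in 2iLIF, and 3108, 3155 and 3009 FPKM in ES. Every ES library lay above every library of the other media, and the EPSCM libraries lay below those of 2iLIF. The 23 mitosis genes summed to 1821, 1718 and 1810 FPKM in EPSCM, 1568, 1603 and 1589 FPKM in 2iLIF, and 2070, 2091 and 2024 FPKM in ES. Here too ES was highest, but 2iLIF was lowest. The ratio of the replication sum to the mitosis sum was therefore 1.34 to 1.47 in EPSCM, 1.60 to 1.68 in 2iLIF and 1.49 to 1.51 in ES, with no overlap between the media. These sums are led by the most abundant genes, and no test was made on them. The median over the replication genes was 53.1 to 71.5 FPKM in EPSCM, 54.2 to 61.4 in 2iLIF and 61.6 to 67.1 in ES. By that median EPSCM overlapped both other media. The median over the mitosis genes was 66.3 to 71.7 FPKM in EPSCM, 46.1 to 58.7 in 2iLIF and 60.1 to 75.6 in ES. By this measure 2iLIF was still lowest, but EPSCM and ES overlapped.

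**Figure D2:**
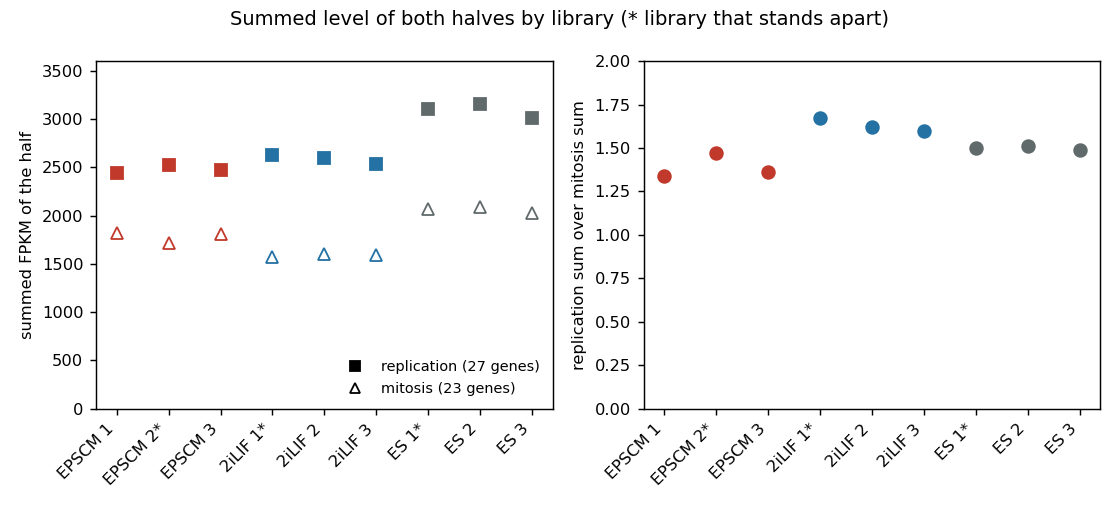
Summed FPKM of the 27 replication genes (filled squares) and the 23 mitosis genes (open triangles) in each library (left), and the ratio of the replication sum to the mitosis sum (right). Both sums were highest in ES, and the ratio was 1.34 to 1.47 in EPSCM, 1.60 to 1.68 in 2iLIF and 1.49 to 1.51 in ES.

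Differences were taken on the log2(FPKM + 1) scale and tested with limma over all 9 libraries, and p-values were adjusted by the method of Benjamini and Hochberg over all 12330 genes. A gene rose or fell here when its adjusted p was under 0.05, and was called when the difference was also at least 1 in size. By limma's F statistic, 37 of 50 genes differed among the media (22 of 27 replication and 15 of 23 mitosis genes), against 85.5% of all tested genes. Without the 3 libraries that stand apart the count was 48 of 50. The F share of all tested genes in that setting is not given here, so this count has no background. In the comparisons between media, passes then became more frequent among all tested genes as well. In EPSCM against ES, 46.9% of them were then higher and 37.1% lower, up from 41.6% and 31.5%. Over the 3 comparisons between media, 73 differences of these genes did not pass, and 53 of them passed with a covariate for the libraries apart. That covariate was defined from these data, so its p-values can be too low. With it 48.5% of all tested genes were higher and 38.5% lower in EPSCM against ES. These shares were 44.3% and 40.5% in EPSCM against 2iLIF, and 43.9% and 40.2% in 2iLIF against ES. Of the 11 genes that passed in no comparison, 9 did so with that covariate, all but Orc1 and Cenpe. The mean was highest in EPSCM for 8 of 27 replication and 10 of 23 mitosis genes, in 2iLIF for 5 and 2, and in ES for 14 and 11. Among all tested genes the shares were 39.0% in EPSCM, 29.8% in 2iLIF and 31.2% in ES. The mean was lowest in 2iLIF for 15 of 23 mitosis genes (65.2%) and for 10 of 27 replication genes (37.0%), against 30.0% of all tested genes. It was lowest in EPSCM for 5 of 23 mitosis genes (21.7%) and for 13 of 27 replication genes (48.1%), against 31.8%. In ES it was lowest for 3 and 4 genes, against 38.2%.

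**Figure D3:**
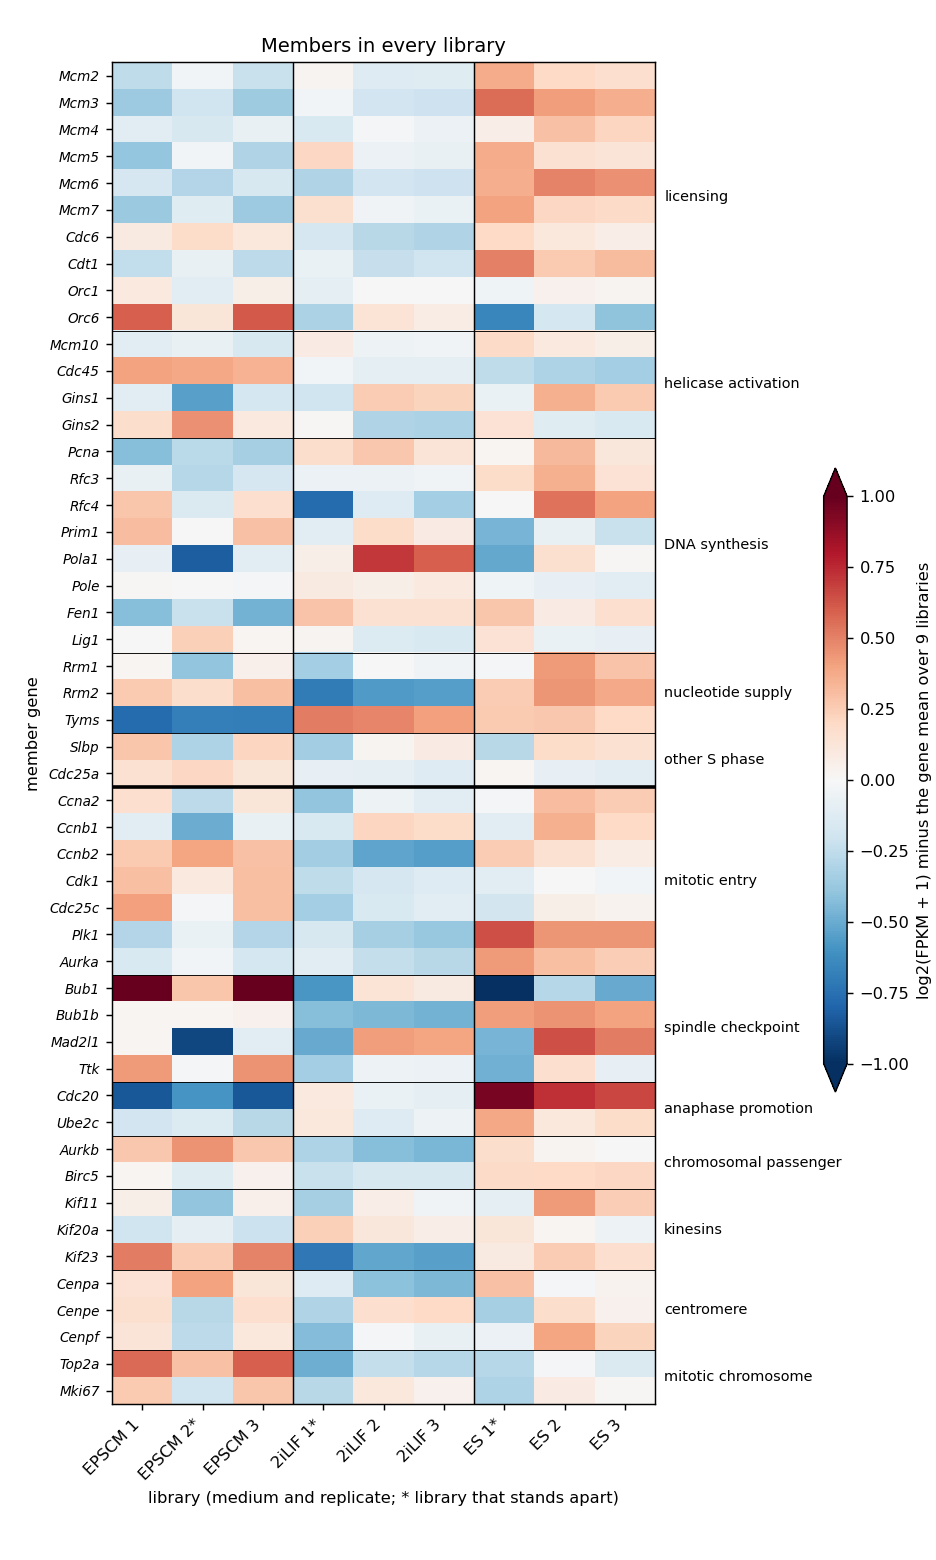
Level of each of the 50 genes (rows, grouped by role, replication above the thick line and mitosis below it) in each of the 9 libraries (columns), as log2(FPKM + 1) minus the mean of that gene over the libraries. Colours stop at 1 in either direction, and stars mark the libraries that stand apart. The means of Mcm2 to Mcm7 were highest in ES, Tyms and Cdc20 were lowest in EPSCM, and Rrm2 and Kif23 were lowest in 2iLIF.

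In EPSCM against ES, more replication genes fell than rose, and 7 of the 10 licensing genes fell. Of 27 replication genes 13 fell and 4 rose, and of 23 mitosis genes 7 fell and 5 rose, against 31.5% lower and 41.6% higher among all tested genes. The median difference was -0.23 for replication genes (-0.37 without ES replicate 1) and -0.17 for mitosis genes (-0.04 without EPSCM replicate 2 and -0.09 without ES replicate 2), against 0.09 for all tested genes. In all 29 of 50 genes passed, against 73.1% of tested genes. Bub1 was called higher and Cdc20 lower, 2 of 50 genes, against 19.7% of all tested genes (11.7% higher and 7.97% lower), so most differences were of less than 1 on the log2 scale. Quantile normalization left 8 replication genes lower and 6 higher, and turned the mitosis split to 4 lower and 7 higher. Under it 35.4% of all tested genes were lower and 36.9% higher. Without the 3 libraries that stand apart, 17 replication genes were lower and 7 higher, and 12 mitosis genes were lower and 10 higher. Of all tested genes 37.1% were then lower and 46.9% higher.

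The licensing genes load the helicase. All 6 subunits of the ring, Mcm2 to Mcm7, fell, with a median of -0.50 and a range of -0.75 (Mcm3) to -0.31 (Mcm4). Mcm3 and Mcm6 lie on chromosome 1, which was lower as a whole, and after subtracting the median of each gene's chromosome the range was -0.67 (Mcm5 and Mcm7) to -0.36 (Mcm6). However, Mcm2, Mcm4 and Mcm5 did not pass under quantile normalization (adjusted p = 0.0544, 0.130 and 0.0827), and Mcm4 and Mcm5 did not pass with the close libraries averaged (0.0536 and 0.0599). Mcm3 had 180, 202 and 181 FPKM in EPSCM, 227, 203 and 201 FPKM in 2iLIF, and 343, 311 and 299 FPKM in ES. The EPSCM and 2iLIF libraries of Mcm3 interleaved, and all lay below those of ES, with a difference of -0.75 ± 0.08 (SE) in EPSCM against ES (limma adjusted p = 2.34e-05). Mcm2 had 133, 156 and 136 FPKM in EPSCM, 162, 145 and 146 in 2iLIF and 205, 183 and 178 in ES, a difference of -0.42 ± 0.08 in EPSCM against ES. Mcm5 had 201, 258 and 213 FPKM in EPSCM, 303, 253 and 250 in 2iLIF and 340, 292 and 287 in ES, a difference of -0.45 ± 0.12. In both genes the library apart was the highest of its medium, and EPSCM and ES did not overlap. Cdt1, which brings the ring to origins, fell as well (-0.55 ± 0.08, limma adjusted p = 2.65e-04).

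The other licensing genes did not share this direction. Orc6, a subunit of the origin recognition complex, had 102, 72.6 and 102 FPKM in EPSCM, 53.4, 73.2 and 70.1 in 2iLIF and 42.2, 59.0 and 50.2 in ES. EPSCM lay above ES in every library, a rise of 0.85 ± 0.18 (limma adjusted p = 1.99e-03), and its low replicate 2 reached into the 2iLIF range. Without that library the rise of Orc6 was 1.01. Its rise in EPSCM against 2iLIF (0.48 ± 0.18, limma adjusted p = 0.0371) failed in 8 of 24 alternative settings, including without EPSCM replicate 1 (0.116), EPSCM replicate 3 (0.118), 2iLIF replicate 1 (0.120), 2iLIF replicate 3 (0.0528) or ES replicate 3 (0.0544). Cdc6, a loader of the ring, had 25.6, 27.5 and 25.8 FPKM in EPSCM, 21.3, 19.6 and 19.3 in 2iLIF and 27.7, 25.9 and 25.3 in ES. EPSCM and ES overlapped for Cdc6 (difference -0.00 ± 0.06), and 2iLIF lay below both. Orc1, the largest subunit of the recognition complex, differed by 0.01 ± 0.07 in EPSCM against ES and did not pass in any of the 3 comparisons.

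Genes that activate the helicase split. Cdc45, a part of the moving helicase, had 53.7, 53.1 and 51.6 FPKM in EPSCM, 39.8, 37.7 and 37.8 in 2iLIF and 33.8, 32.4 and 31.7 in ES. The 3 media did not overlap, and the libraries of each medium, the one apart included, were close together. Cdc45 rose by 0.68 ± 0.05 in EPSCM against ES (limma adjusted p = 2.23e-06), where all 6 genes of the Mcm ring it joins fell, and by 0.45 ± 0.05 against 2iLIF (3.88e-05). Mcm10, which helps activate the helicase, fell by 0.23 ± 0.06, and the GINS subunit Gins1 fell by 0.46 ± 0.17. Both were weakly held: Mcm10 did not pass under quantile normalization (limma adjusted p = 0.101) or with the close libraries averaged (0.0676). Gins1 failed in 6 of 24 alternative settings, among them without EPSCM replicate 2 (0.104), without ES replicate 2 (0.108) and without ES replicate 3 (0.0915). The GINS subunit Gins2 did not pass against ES (0.29 ± 0.13) and rose against 2iLIF (0.45 ± 0.13, limma adjusted p = 0.0123, or 0.0795 after averaging the close libraries).

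Of the 8 DNA synthesis genes, 3 fell (37.5%) and 1 rose (12.5%) in EPSCM against ES, against 31.5% lower and 41.6% higher among all tested genes. Pcna had 251, 280 and 269 FPKM in EPSCM, 381, 407 and 369 in 2iLIF and 343, 424 and 366 in ES. EPSCM lay below both other media, which overlapped each other, with differences of -0.50 ± 0.09 against ES (limma adjusted p = 6.37e-04) and -0.53 ± 0.09 against 2iLIF (4.82e-04). Fen1, the nuclease that trims Okazaki fragments, showed the same order: 42.5 ± 4.11 FPKM in EPSCM, 63.3 ± 3.49 in 2iLIF and 62.6 ± 4.38 in ES (SD, n = 3 each), with differences of -0.55 ± 0.08 against ES and -0.57 ± 0.08 against 2iLIF. Rfc3, a subunit of the loader of the clamp, fell against ES (-0.40 ± 0.07), and Prim1, the primase subunit that makes the RNA primer, rose (0.45 ± 0.13, limma adjusted p = 0.0095, or 0.0588 after averaging the close libraries). Lig1, the ligase that joins Okazaki fragments, did not pass in any comparison.

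Pola1 and Rfc4 varied widely within each medium. Pola1 had 14.2, 8.07 and 13.9 FPKM in EPSCM, 15.8, 25.3 and 23.3 in 2iLIF and 10.3, 16.9 and 15.2 in ES. In all 3 media the library apart was the lowest, EPSCM lay below 2iLIF without overlap (-0.79 ± 0.26, limma adjusted p = 0.0223), and both overlapped ES. Without EPSCM replicate 2, 2iLIF replicate 2 or 2iLIF replicate 3 in turn, that difference of Pola1 did not pass (0.0663, 0.0774 and 0.0688). Rfc4, another subunit of the clamp loader, had 32.0, 23.6 and 29.6 FPKM in EPSCM, 15.0, 23.8 and 20.4 in 2iLIF and 26.0, 38.6 and 34.9 in ES. Only 2iLIF against ES did not overlap, a fall of 0.72 ± 0.19 (limma adjusted p = 0.00924, or 0.0565 after averaging the close libraries). The rise of Rfc4 in EPSCM against 2iLIF (0.52 ± 0.19, limma adjusted p = 0.0414) failed in 9 of 24 alternative settings, including without EPSCM replicate 1 (0.128), EPSCM replicate 3 (0.103), 2iLIF replicate 1 (0.131), 2iLIF replicate 3 (0.0691) or ES replicate 3 (0.0575).

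Tyms, thymidylate synthase, makes the thymidine nucleotide of DNA, and had 16.3, 17.3 and 17.2 FPKM in EPSCM, 41.1, 40.3 and 38.2 in 2iLIF and 34.3, 34.5 and 32.9 in ES. The media did not overlap, and the libraries within each medium, the one apart included, lay close together. Tyms fell by 0.96 ± 0.05 in EPSCM against ES (limma adjusted p = 3.92e-07) and was called lower in EPSCM against 2iLIF (-1.19 ± 0.05, 1.23e-07). Against ES it lay just under the limit of 1 and passed it when libraries were scaled to the same median ratio (-1.06) and after subtracting the median of its chromosome (-1.08). Rrm2, the regulated subunit of ribonucleotide reductase, had 204, 192 and 209 FPKM in EPSCM, 104, 114 and 116 in 2iLIF and 203, 231 and 221 in ES. For Rrm2 it was 2iLIF that stood low, with EPSCM and ES overlapping (-0.11 ± 0.07), a rise of 0.85 ± 0.07 in EPSCM against 2iLIF (limma adjusted p = 5.28e-06) and a fall of 0.96 ± 0.07 in 2iLIF against ES (2.65e-06). The ratio of Rrm2 to Tyms in FPKM was 11.1 to 12.5 in EPSCM, 2.53 to 3.03 in 2iLIF and 5.90 to 6.72 in ES. Rrm1, the other subunit of the reductase, did not pass in any comparison.

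Slbp and Cdc25a act in S phase without being part of the replication machinery. Slbp, which binds the stem-loop of histone mRNAs, had 74.6, 49.5 and 71.7 FPKM in EPSCM, 48.0, 62.8 and 65.2 in 2iLIF and 50.5, 69.9 and 68.5 in ES. The library apart was the lowest of each medium, the media overlapped, and no comparison passed. Cdc25a, a phosphatase that activates Cdk2 and Cdk1, rose by 0.22 ± 0.05 in EPSCM against ES (limma adjusted p = 0.00457, but 0.101 when scaled to the same median ratio) and by 0.26 ± 0.05 against 2iLIF (0.00183).

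**Figure D4:**
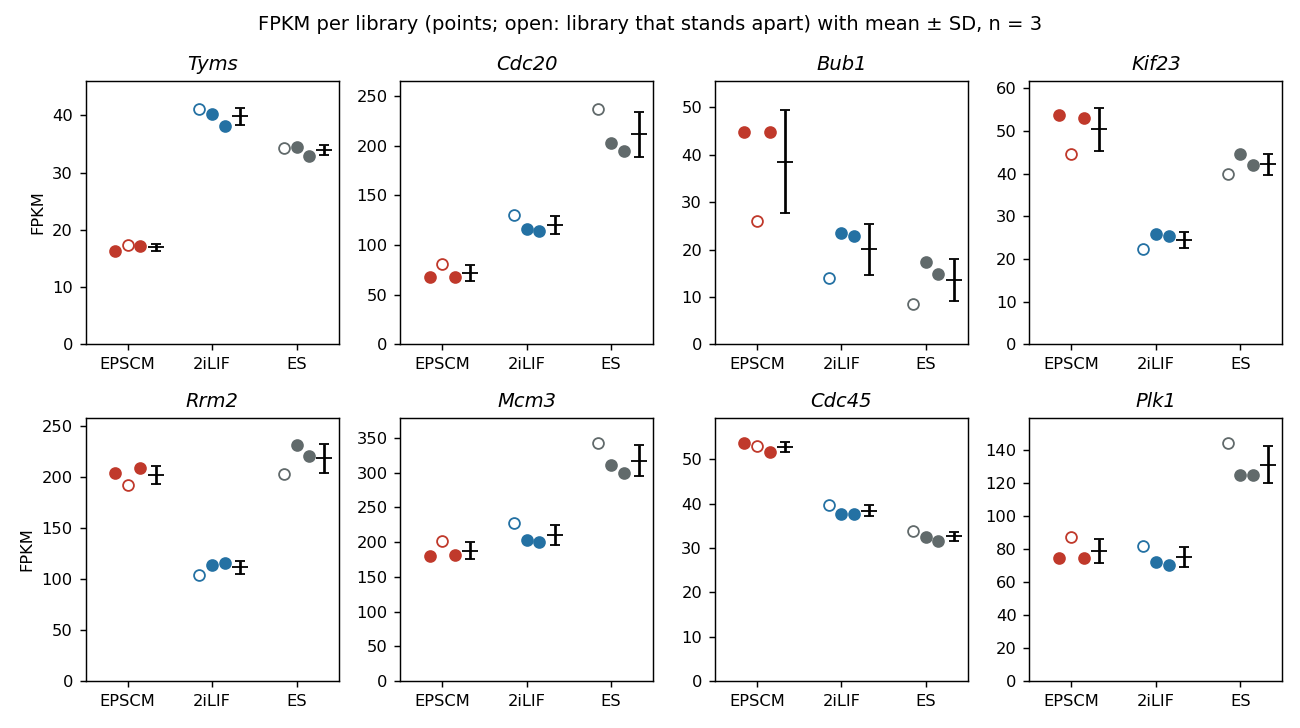
FPKM of 8 genes in each library (points; open for the library that stands apart) with mean ± SD over n = 3 libraries per medium. Tyms and Cdc20 were lowest in EPSCM, Rrm2 and Kif23 were lowest in 2iLIF, Mcm3 and Plk1 were highest in ES, and Cdc45 and Bub1 were highest in EPSCM.

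Of the 7 mitotic entry genes, 1 rose (Cdk1, 14.3%) and 2 fell (Plk1 and Aurka, 28.6%) in EPSCM against ES, against 41.6% higher and 31.5% lower among all tested genes. Plk1, Polo-like kinase, had 74.5, 87.2 and 74.4 FPKM in EPSCM, 81.6, 72.3 and 70.2 in 2iLIF and 144, 125 and 124 in ES. EPSCM and 2iLIF overlapped and both lay below ES, with falls of 0.73 ± 0.09 in EPSCM (limma adjusted p = 8.35e-05) and 0.80 ± 0.09 in 2iLIF (5.68e-05). Aurka, the Aurora kinase of the spindle poles, followed the same order at smaller size (-0.44 ± 0.07 in EPSCM and -0.53 ± 0.07 in 2iLIF, both against ES). Cdk1, the kinase that drives entry, had 64.8, 56.0 and 64.7 FPKM in EPSCM, 43.6, 46.5 and 47.8 in 2iLIF and 48.2, 52.2 and 51.2 in ES. EPSCM was highest without overlap, a rise of 0.28 ± 0.07 against ES (limma adjusted p = 0.00555, or 0.0742 after averaging the close libraries) and of 0.42 ± 0.07 against 2iLIF (6.69e-04). Ccnb1, cyclin B1, had 131, 99.8 and 134 FPKM in EPSCM, 127, 164 and 161 in 2iLIF and 131, 181 and 162 in ES, and did not pass in any comparison. In Ccnb1 the library apart was the lowest of each medium, and all media overlapped. With a covariate for the libraries apart, Ccnb1 passed lower in EPSCM against ES (-0.38, limma adjusted p = 4.37e-06) and against 2iLIF (-0.31, 2.17e-05). That covariate was defined from these same data, so these 2 p-values can be too low. Ccnb2, cyclin B2, was lowest in 2iLIF (106 ± 5.25 FPKM in EPSCM, 60.5 ± 4.89 in 2iLIF and 94.7 ± 6.11 in ES, SD, n = 3 each), a rise of 0.80 ± 0.07 in EPSCM against 2iLIF and a fall of 0.64 ± 0.07 in 2iLIF against ES. Cdc25c rose in EPSCM against 2iLIF (0.44 ± 0.12, limma adjusted p = 0.00984, or 0.0832 after averaging the close libraries) and did not pass against ES (0.27 ± 0.12). Ccna2, cyclin A2, fell in 2iLIF against ES (-0.37 ± 0.14, limma adjusted p = 0.0455), a result that failed in 9 of 24 alternative settings, including without EPSCM replicate 3 (0.0564), 2iLIF replicate 1 (0.143), 2iLIF replicate 3 (0.0672), ES replicate 2 (0.136) or ES replicate 3 (0.123).

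Cdc20 and Bub1, the 2 genes called in EPSCM against ES, act on the same step from opposite sides: the checkpoint restrains Cdc20 until chromosomes are attached. Cdc20 had 67.4, 80.6 and 67.4 FPKM in EPSCM, 130, 116 and 114 in 2iLIF and 237, 203 and 194 in ES. The media did not overlap, and the library apart was the highest of each. The difference was -1.54 ± 0.10 in EPSCM against ES (limma adjusted p = 1.15e-06), -0.74 ± 0.10 in EPSCM against 2iLIF (1.63e-04) and -0.81 ± 0.10 in 2iLIF against ES (9.68e-05). Ube2c, the ubiquitin-conjugating enzyme that works with the same complex, had 224 ± 11.2 FPKM in EPSCM, 255 ± 21.7 in 2iLIF and 303 ± 30.9 in ES (SD, n = 3 each), a fall of 0.43 ± 0.09 in EPSCM against ES (limma adjusted p = 0.00205, and 0.0820 under quantile normalization). Its fall of 0.25 ± 0.09 in 2iLIF against ES failed in 8 of 24 alternative settings, in 5 of them with 1 library left out (adjusted p = 0.0506 without EPSCM replicate 1, 0.122 without 2iLIF replicate 2, 0.0902 without 2iLIF replicate 3, 0.105 without ES replicate 1 and 0.0565 without ES replicate 3), and was 0.016 under quantile normalization.

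Bub1, a kinase of the checkpoint, had 44.8, 26.0 and 44.9 FPKM in EPSCM, 13.9, 23.5 and 22.8 in 2iLIF and 8.55, 17.3 and 14.8 in ES. The library apart was the lowest of each medium, and EPSCM lay above both other media in every library. Bub1 rose by 1.46 ± 0.31 in EPSCM against ES (limma adjusted p = 0.00214) and by 0.90 ± 0.31 against 2iLIF (0.0266), and 2iLIF and ES overlapped (0.55 ± 0.31). The rise against 2iLIF did not pass without EPSCM replicate 1 (0.0863), EPSCM replicate 3 (0.0862) or 2iLIF replicate 1 (0.0876), nor with the close libraries averaged (0.117). Its size passed the limit of 1 without EPSCM replicate 2 (1.16), 2iLIF replicate 2 (1.03) or 2iLIF replicate 3 (1.01). Bub1b, the BubR1 kinase of the same checkpoint, went another way: it had 89.9, 90.2 and 91.4 FPKM in EPSCM, 65.6, 64.6 and 63.8 in 2iLIF and 119, 121 and 118 in ES. These libraries, the ones apart included, stayed within a narrow range in each medium and did not overlap. Bub1b fell by 0.40 ± 0.04 in EPSCM against ES (limma adjusted p = 2.81e-05) and by 0.87 ± 0.04 in 2iLIF against ES (2.28e-07), and rose by 0.48 ± 0.04 in EPSCM against 2iLIF (9.75e-06). Mad2l1, which binds Cdc20, ranged from 23.5 to 45.7 FPKM in EPSCM, from 31.5 to 60.5 in 2iLIF and from 32.5 to 71.2 in ES. Neither Mad2l1 nor the checkpoint kinase Ttk passed in any comparison. With a covariate for the libraries apart, Mad2l1 passed lower in all 3 (-0.57 in EPSCM against ES, limma adjusted p = 1.56e-06; -0.43 in EPSCM against 2iLIF, 1.40e-05; -0.13 in 2iLIF against ES, 0.0275). Ttk then passed higher in EPSCM against ES (0.42, 1.80e-04) and against 2iLIF (0.44, 1.38e-04). As the covariate was defined from these same data, its p-values for Mad2l1 and Ttk can be too low.

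The chromosomal passenger complex corrects faulty attachments. Its kinase Aurkb had 63.3, 71.7 and 63.3 FPKM in EPSCM, 42.1, 38.6 and 37.7 in 2iLIF and 59.2, 53.3 and 52.1 in ES. The media did not overlap, with EPSCM highest and 2iLIF lowest. Aurkb rose by 0.26 ± 0.08 in EPSCM against ES (limma adjusted p = 0.0115, but 0.111 when scaled to the same median ratio or 0.0866 after averaging the close libraries), rose by 0.73 ± 0.08 against 2iLIF (2.79e-05) and fell by 0.47 ± 0.08 in 2iLIF against ES (5.28e-04). Birc5, survivin of the same complex, had 167 ± 10.1 FPKM in EPSCM, 149 ± 3.63 in 2iLIF and 194 ± 1.24 in ES (SD, n = 3 each), a fall of 0.22 ± 0.06 in EPSCM against ES that was 0.046 under quantile normalization (limma adjusted p = 0.511), and a fall of 0.38 ± 0.06 in 2iLIF against ES. Its rise in EPSCM against 2iLIF (0.16 ± 0.06, limma adjusted p = 0.0265) failed in 9 of 24 alternative settings, including without EPSCM replicate 1 (0.0881), EPSCM replicate 3 (0.104), 2iLIF replicate 1 (0.0758), 2iLIF replicate 2 (0.0549) or 2iLIF replicate 3 (0.0543).

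Kif23, the kinesin of the central spindle, had 53.7, 44.6 and 53.0 FPKM in EPSCM, 22.4, 25.7 and 25.3 in 2iLIF and 39.9, 44.7 and 42.1 in ES. The 2iLIF libraries lay below all others, and EPSCM overlapped ES through its replicate 2. Kif23 was called higher in EPSCM against 2iLIF (1.01 ± 0.09, limma adjusted p = 8.58e-06), a value at the limit that fell below 1 in 6 of 24 alternative settings, among them without EPSCM replicate 1 (0.96), EPSCM replicate 3 (0.97) or 2iLIF replicate 1 (0.95), while the adjusted p stayed under 0.05 in all 24. After subtracting the median of its chromosome it was 0.91. Against ES its rise of 0.25 ± 0.09 (limma adjusted p = 0.0294) failed in 6 settings, including without EPSCM replicate 1 (0.103), EPSCM replicate 3 (0.0982), ES replicate 1 (0.0867) or ES replicate 3 (0.0686). In 2iLIF against ES it fell by 0.76 ± 0.09 (5.93e-05). Kif20a, another kinesin of the central spindle, had 73.4, 79.4 and 72.9 FPKM in EPSCM, 99.8, 91.8 and 88.4 in 2iLIF and 92.1, 85.8 and 81.5 in ES. EPSCM was lowest without overlap, a fall of 0.31 ± 0.07 against 2iLIF (limma adjusted p = 0.00338), so the 2 kinesins of the central spindle differed in opposite directions between these media. The fall of Kif20a against ES (-0.20 ± 0.07, limma adjusted p = 0.0271) failed in 6 settings, including without EPSCM replicate 1 (0.0818), EPSCM replicate 3 (0.0883), ES replicate 1 (0.0855) or ES replicate 2 (0.0567). Kif11, the kinesin that separates the spindle poles, did not pass in any comparison.

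Of the centromere genes, Cenpa, the histone variant that marks centromeres, rose by 0.55 ± 0.12 in EPSCM against 2iLIF (limma adjusted p = 0.00273) and fell by 0.43 ± 0.12 in 2iLIF against ES (0.0104, and 0.055 under quantile normalization). Cenpe and Cenpf, which act at the kinetochore, did not pass in any comparison. Top2a, the topoisomerase that untangles sister chromatids, had 187, 154 and 191 FPKM in EPSCM, 89.4, 107 and 103 in 2iLIF and 103, 125 and 113 in ES. EPSCM lay above all other libraries, the difference being 0.63 ± 0.11 against ES (limma adjusted p = 5.73e-04) and 0.82 ± 0.11 against 2iLIF (1.26e-04), while 2iLIF and ES overlapped. Mki67, the Ki-67 protein that coats mitotic chromosomes and is widely used to mark dividing cells, had 39.8, 28.7 and 40.2 FPKM in EPSCM, 27.1, 35.5 and 34.1 in 2iLIF and 26.5, 35.0 and 33.3 in ES. The media overlapped for Mki67, the library apart was the lowest of each, and no comparison passed.

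In EPSCM against 2iLIF, 10 of 23 mitosis genes rose (43.5%) and 2 fell (8.70%, Cdc20 and Kif20a), and 7 of 27 replication genes rose (25.9%) and 5 fell (18.5%), against 36.6% higher and 31.4% lower among all tested genes. The median difference was 0.17 for mitosis genes (0.31 without EPSCM replicate 2) and -0.03 for replication genes (-0.06 without EPSCM replicate 3, -0.04 without 2iLIF replicate 1 and -0.01 without 2iLIF replicate 2), against 0.03 for all tested genes. In all 24 of 50 genes passed, against 68.0% of tested genes. Kif23 was called higher and Tyms lower, 2 of 50 genes, against 16.1% of all tested genes (10.1% higher and 5.91% lower). The replication split turned with scaling, to 6 higher and 9 lower when libraries were scaled to the same median ratio and to 6 higher and 8 lower when scaled to the same sum. Of all tested genes 33.8% were higher and 34% lower at the same median ratio, and 36.1% and 32.5% at the same sum. Without the 3 libraries that stand apart the replication split was 10 higher and 10 lower, and the mitosis split was 15 higher and 5 lower. Of all tested genes 42.8% were then higher and 38.4% lower. Of Mcm2 to Mcm7, 1 of 6 (Mcm7) fell in this comparison, by 0.31 ± 0.10 (limma adjusted p = 0.0196), and it did not pass without EPSCM replicate 1 (0.0705), EPSCM replicate 3 (0.0687) or 2iLIF replicate 1 (0.0652).

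In 2iLIF against ES, 24 of 50 genes passed, against 67.0% of tested genes. By limma none of the 50 was called, against 14.7% of all tested genes (7.62% higher and 7.12% lower), and none with an unadjusted p under 0.05 differed by 1 or more. Of 27 replication genes 10 fell (37.0%) and 3 rose (Cdc45, Tyms and Pole, the leading-strand polymerase), and of 23 mitosis genes 11 fell (47.8%) and none rose (12 and 0 at an unadjusted p under 0.05), against 32.2% lower and 34.8% higher among all tested genes. With the close libraries averaged 5 replication genes were lower, and none of the 3 rises passed (adjusted p = 0.0580 for Cdc45, 0.0519 for Tyms and 0.137 for Pole). Of all tested genes 24.9% were then lower and 27% higher. The rise of Pole did not pass at the same median ratio either (0.0630). The median difference was -0.12 for replication genes and -0.29 for mitosis genes, against 0.03 for all tested genes. Of Mcm2 to Mcm7, 5 of 6 fell, and Mcm5 did not pass. Mcm6 differed by -0.67 ± 0.06, which became -0.40 after subtracting the median of chromosome 1, next to -0.43 for Mcm4 on chromosome 16. Mcm7 passed narrowly (-0.24 ± 0.10, limma adjusted p = 0.0494), failed in 13 of 24 alternative settings, among them without any 1 of 7 libraries, all but EPSCM replicate 2 and 2iLIF replicate 1 (0.0578 to 0.152), and was 0.0074 under quantile normalization. Without the 3 libraries that stand apart, 16 replication genes were lower and 6 higher, and 17 mitosis genes were lower and 2 higher. Of all tested genes 38.7% were then lower and 41.9% higher. Replication genes higher numbered 6 without EPSCM replicate 2 or 2iLIF replicate 1, where 36.4% and 34.1% of all tested genes were higher. Rrm2 reached the limit of 1 without ES replicate 1 (-1.02) and when libraries were scaled to the same median ratio (-1.01).

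**Figure D5:**
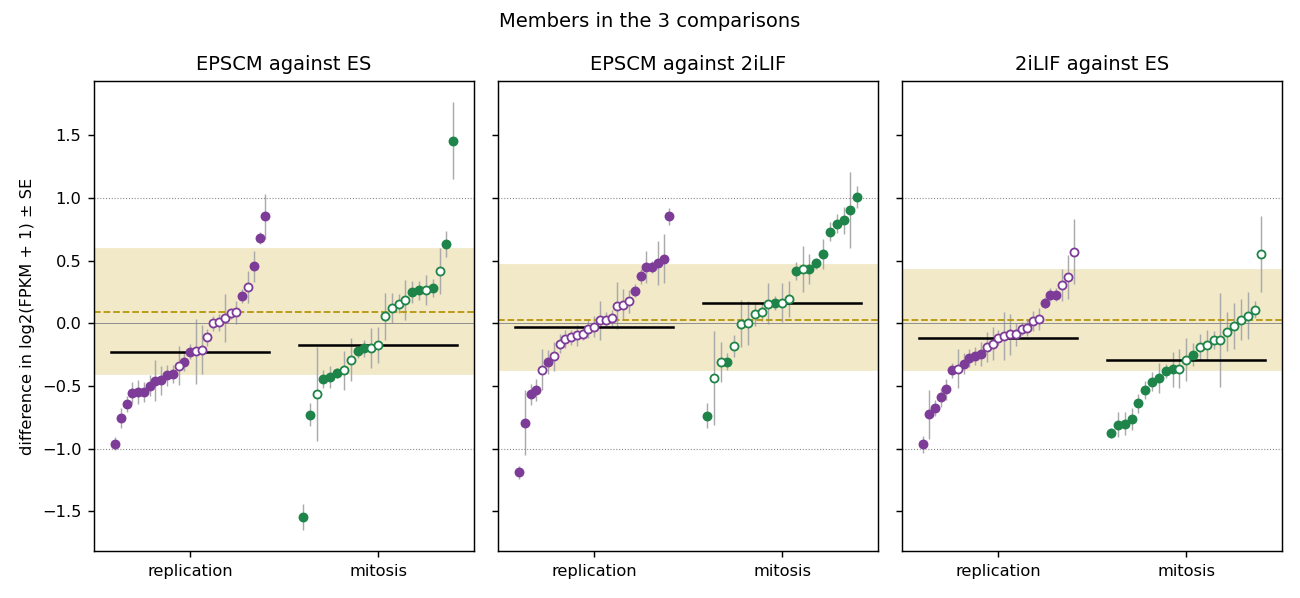
Difference in log2(FPKM + 1) ± SE of each replication gene (purple) and mitosis gene (green) in the 3 comparisons, sorted within each group. Filled points passed at adjusted p under 0.05, black bars are medians of the group, the dashed line is the median of all tested genes, the band holds the middle 50% of them, and dotted lines mark the limit of 1. Mitosis genes had a median of -0.17, 0.17 and -0.29 in the 3 panels and replication genes of -0.23, -0.03 and -0.12.

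Set against each other, the replication median minus the mitosis median was -0.06 in EPSCM against ES, -0.19 in EPSCM against 2iLIF and 0.18 in 2iLIF against ES. Over the alternative settings these differences of medians ranged over -0.24 to -0.06, -0.34 to -0.16 and 0.08 to 0.27. The lowest in the last comparison came without 2iLIF replicate 1. These comparisons share libraries, so the values are not independent. Within a medium the spread was shared by many of these genes. In the libraries that stand apart, 14 of 23 mitosis genes (60.9%) were lower than the mean of the close pair in all 3 media, as were 12 of 27 replication genes (44.4%) and 30.0% of all tested genes. Higher in all 3 media were 8 of 23 mitosis genes (34.8%), 14 of 27 replication genes (51.9%) and 46.0% of all tested genes. The median shift was -0.18 for mitosis genes, 0.02 for replication genes and 0.05 for all tested genes. It was largest for Mad2l1 (-0.94), Bub1 (-0.76) and Pola1 (-0.64). The labels give no date or batch for these libraries.

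Chromosome 1 as a whole was lower than the rest, with a median over its 657 tested genes of -0.29 in EPSCM against ES and -0.28 in 2iLIF against ES, against 0.11 and 0.04 on the autosomes other than 1 and 14. Mcm3, Mcm6 and Cenpf lie on chromosome 1. After subtracting the median of the chromosome, the difference in EPSCM against ES was -0.46 for Mcm3 and -0.36 for Mcm6, and in 2iLIF against ES it was -0.32 and -0.40. Without the chromosome 1 genes, a setting added once the data had been seen, 11 of 25 replication genes fell and 4 rose in EPSCM against ES. Chromosome 8, with Mcm5, Cdt1, Orc6 and Gins2, had the highest median of the autosomes in EPSCM, 0.22 against ES and 0.16 against 2iLIF. After the same subtraction Orc6 was 0.64 against ES and 0.32 against 2iLIF, and Gins2 was 0.29 against 2iLIF. The falls of Mcm5 and Cdt1 against ES became larger, at -0.67 and -0.77.

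Counts of genes outside the 50 stand beside shares among all tested genes of 41.6% higher and 31.5% lower in EPSCM against ES, 36.6% and 31.4% in EPSCM against 2iLIF, and 34.8% and 32.2% in 2iLIF against ES. Of 48 other replication genes, 14 rose and 12 fell in EPSCM against ES, 17 rose and 9 fell in EPSCM against 2iLIF, and 8 rose and 13 fell in 2iLIF against ES. The called gene with the largest difference was Cdc7, the kinase that starts the loaded helicase, at 53.7 ± 4.54 FPKM in EPSCM, 23.7 ± 2.46 in 2iLIF and 17.2 ± 2.13 in ES (SD, n = 3 each), a rise of 1.59 ± 0.11 against ES. Ticrr, which helps load Cdc45, was called higher in 2iLIF against ES (1.01 ± 0.06), and 0.95 after subtracting the median of its chromosome. Orc2, a subunit of the origin recognition complex whose gene is also on chromosome 1, was called lower in EPSCM against ES (-1.09 ± 0.33), and was -0.80 after subtracting that median, under the limit of 1. Of 59 other mitosis genes, 15 rose and 17 fell in EPSCM against ES, 21 rose and 8 fell in EPSCM against 2iLIF, and 7 rose and 21 fell in 2iLIF against ES. Pttg1, securin, which guards the cohesin cut at anaphase, had 120 ± 0.726 FPKM in EPSCM, 54.0 ± 2.84 in 2iLIF and 35.8 ± 4.20 in ES, a rise of 1.72 ± 0.08 against ES. Anln, the anillin of the cleavage furrow, rose as well (1.25 ± 0.11), while Gtse1, a microtubule-binding protein, fell (-1.44 ± 0.12), as did the centromere protein gene Cenpm (-1.11 ± 0.14).

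Of 22 regulators of cell cycle transcription, 7 rose and 10 fell in EPSCM against ES, 10 rose and 7 fell in EPSCM against 2iLIF, and 6 rose and 8 fell in 2iLIF against ES, beside the same shares of all tested genes. E2f2 had 6.39 ± 0.185 FPKM in EPSCM, 3.24 ± 0.299 in 2iLIF and 16.8 ± 0.702 in ES (SD, n = 3 each), with differences of -1.27 ± 0.07 in EPSCM and -2.07 ± 0.07 in 2iLIF, both against ES. E2f8, a repressor of the family, was called lower in 2iLIF against ES (-1.45 ± 0.08), as was Tfdp1, the partner with which most E2F factors bind DNA (-1.19 ± 0.06). Nfyc, a subunit of NF-Y, was called lower in EPSCM against 2iLIF (-1.17 ± 0.10). The other called regulators, named here after their values were seen, were higher in EPSCM against ES: E2f1, an activator of the family (1.07 ± 0.09, limma adjusted p = 5.90e-06), and Rbl1, a pocket protein that binds E2F factors (1.04 ± 0.20, 0.00130). After subtracting the median of their chromosome they were 0.95 and 0.92, under the limit of 1. Levels of these regulators are of their RNA, and their part in the levels of the 50 genes was not tested.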

How the data were processed

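Polyadenylated RNA of E14 cells in 3 media, with 3 libraries each, was measured by stranded RNA-seq, per the labels' protocols. The deposited values are FPKM per gene and library, which the authors computed with STAR and Cuffnorm (per the submitters' processing notes, which name build mm9). Not given in the sources used here are tool versions, gene annotation, Cuffnorm's scaling, the strand setting and the handling of reads shared with pseudogenes. Because FPKM is relative to the library total, abundant genes can shift all others. Groups came from the culture condition in the labels, replicates were numbered in the order of deposit, and 0 columns of per-sample values were left out. No library repeated another.

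Values were tested as log2(FPKM + 1) in 1 limma model (limma 3.58.1, R 4.3.3, eBayes with trend) over all 9 libraries, for the 12330 of 24819 genes that reached 1 FPKM in 3 or more libraries, with Benjamini-Hochberg adjustment. A call needed adjusted p under 0.05 together with a difference of 1 or more on the log2 scale. The model was also run on simulated data with known changes. Their noise was independent between genes and libraries, without the shared shift of the libraries apart, so that run cannot show how the model handles it. The members, lists and tests were chosen with earlier results of these data known. All 50 genes count as named. Values per library are printed for 23: those called, the 2 largest rises and 2 largest falls per comparison and gene group, and 12 genes fixed whatever their values. At most 4 called genes per other list are named. Promoters and chromosomes came from RefSeq tables of GRCm38.p6, matched by symbol, and were used with no mm9 coordinate. In all, 24 alternatives of pseudocount, filter, scaling, variance prior, covariates and samples were run. Figures were drawn with matplotlib 3.10.9.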

Additional observations from a re-analysis of the deposited data

How the results depend on the processing

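With 3 libraries a medium, the tests see only differences that exceed the spread between close and distant libraries, and the libraries that stand apart set much of that spread. Medians kept their sign in every alternative run: for replication genes they ranged over -0.37 to -0.17 in EPSCM against ES, -0.08 to -0.00 in EPSCM against 2iLIF and -0.17 to -0.05 in 2iLIF against ES, and for mitosis genes over -0.27 to -0.04, 0.11 to 0.31 and -0.38 to -0.23. The cause of the changes that follow was not tested, except that averaging leaves fewer samples. No paired analysis was possible because the library numbers in the labels are not shared between the media. The covariate for the libraries apart is no such pairing, since these libraries were picked by their values in these data. For that reason p-values with it, or with these libraries left out, can be too low. In the labels these libraries carry the numbers 19, 18 and 16, above those of all others (2 to 12).

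Counts that moved by over 1.5 times are given as higher or lower genes at adjusted p under 0.05. In EPSCM against ES, replication genes higher (4) were 7 with array weights, without the libraries apart and with a covariate for them, and 2 with the close libraries averaged, and those lower (13) were 8 under quantile normalization. Mitosis genes higher (5) were 3 at the same median ratio, 9 with array weights, 10 without the libraries apart or with their covariate, 2 averaged, and 8 with a covariate for library numbers of at least 10. Those lower (7) were 4 under quantile normalization, 11 with array weights, and 12 without the libraries apart or with their covariate. Among all tested genes, 36.9% were higher and 35.4% lower under quantile normalization, and 37.2% and 35.7% at the same median ratio. These shares were 49.1% and 37.7% with array weights, 46.9% and 37.1% without the libraries apart, and 48.5% and 38.5% with their covariate. They were 34.9% and 26% averaged, and 44.5% and 34.3% with the covariate for library numbers. In EPSCM against 2iLIF, replication genes higher (7) were 4 averaged. Those lower (5) were 8 at the same sum, 9 at the same median ratio, 11 with array weights, 10 without the libraries apart, 3 averaged, 11 with their covariate and 8 with that for library numbers. Mitosis genes higher (10) were 16 with the covariate for the libraries apart, and those lower (2) were 5 with it, without those libraries or with array weights. Among all tested genes, 36.1% were higher and 32.5% lower at the same sum, and 33.8% and 34% at the same median ratio. These shares were 44.3% and 39.3% with array weights, 42.8% and 38.4% without the libraries apart, and 44.3% and 40.5% with their covariate. They were 29.7% and 24.1% averaged, and 39.5% and 34.8% with the covariate for library numbers. In 2iLIF against ES, replication genes higher (3) were 6 with array weights, without the libraries apart and with either covariate, 0 averaged, and 3 to 6 with 1 library left out. Those lower (10) were 16 without the libraries apart, 17 with their covariate and 5 averaged. Mitosis genes higher (0) were 1 under quantile normalization, at the same sum or with the covariate for library numbers, and 2 with array weights, without the libraries apart or with their covariate. Those lower (11) were 17 without the libraries apart or with their covariate. Among all tested genes, 32.9% were higher and 31.9% lower under quantile normalization, and 38% and 30.5% at the same sum. These shares were 44.2% and 39.6% with array weights, 41.9% and 38.7% without the libraries apart, and 43.9% and 40.2% with their covariate. They were 27% and 24.9% averaged, and 38.8% and 35.5% with the covariate for library numbers.

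Called genes in EPSCM against 2iLIF (2) were 1 at the same sum, at the same median ratio, averaged, and after subtracting the chromosome median, and 1 to 3 with 1 library left out. In 2iLIF against ES (0) they were 1 at the same median ratio and after subtracting the chromosome median, and 0 to 1 with 1 library left out. The F statistic passed 24 of 50 genes averaged, against 37, and the F share of all tested genes averaged is not given here. At the same sum, the mean summed mitosis level was 1615 FPKM in 2iLIF and 2020 FPKM in ES, against 1587 and 2062. With only the bases before the start, 8 mitosis promoters held a CHR word, against 15. Under quantile normalization 3 differences changed sign and no longer passed: Birc5 in EPSCM against ES (0.046), and Mcm7 (0.0074) and Ube2c (0.016) in 2iLIF against ES.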
